A study of Macaca mulatta with 9 samples.

Results

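The respiratory chain genes of rhesus macaque (Macaca mulatta) were followed over 9 Affymetrix arrays of embryonic stem (ES) cells and differentiated cells. The members were the probe sets named as mitochondrial by the array, together with those whose gene symbol begins NDUFA, NDUFB, NDUFC, NDUFS, NDUFV, SDH, UQCR, ATP5 or COX4 to COX8. This gave 144 of the 52763 probe sets with values, of which 6 lie on the mitochondrial genome and 138 belong to 79 nuclear genes. Together they are 85 of the 19751 genes named on the array.

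The differentiated samples were 1 array of adult skin fibroblasts and 1 array of pooled embryoid bodies (EBs), the aggregates that ES cells form when they differentiate spontaneously, at 30 days without FGF2. The ES samples were 7 arrays of 5 lines, with 3 biological replicates (A, B and C) of ORMES6 and 1 array each of ORMES7, ORMES9, ORMES10 and ORMES13. The ES cells grew with FGF2 on inactivated mouse embryonic fibroblasts and their colonies were picked by hand, whereas the skin fibroblasts grew without feeders. The labels do not say which line or lines the EBs came from, and they describe the EB culture both as 30 days in low-adhesion dishes and as a week in suspension before 30 days on gelatin.

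The respiratory chain sits in the inner mitochondrial membrane. Complex I (NADH dehydrogenase) and complex II (succinate dehydrogenase) pass electrons to ubiquinone, complex III passes them to cytochrome c, and complex IV (cytochrome c oxidase) passes them to oxygen, while complex V (ATP synthase) uses the proton gradient that results. Most subunits are encoded in the nucleus, but the core of complexes I, III, IV and V includes subunits encoded by mitochondrial DNA, and complex II has none. The mitochondrial genome is transcribed as long precursors that are cut into single transcripts, with ND6 on the strand opposite to the other protein-coding genes measured here. Pluripotent cells are known for a strong reliance on glycolysis.

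Signals are MAS5 intensities, analysed as log2(signal + 16), and all differences below are on that scale. The 2% trimmed mean was 200.03 on every array, so the arrays share 1 scaling. Of 10 ES cell markers, 8 passed the test as lower in fibroblasts and 7 as lower in EBs, and of 15 fibroblast and matrix markers 3 passed as higher in fibroblasts and 1 in EBs, with all 15 above the ES mean in both. In the EBs 8 of 14 neural markers passed as higher and 1 as lower, against 2.04% and 1.76% of all genes. The actin 3′ to 5′ ratio, a measure of RNA integrity, was 13.1 in fibroblasts and 7.15 in EBs, against 22.7 to 66.2 on the ES arrays. The geometric mean of the hybridisation spikes was 874 in fibroblasts and 506 in EBs, against 571 to 1157 on the ES arrays. The GAPDH 3′ to 5′ ratio was 2.74 in fibroblasts and 1.61 in EBs, against 2.55 to 5.20 on the ES arrays. The actin ratio thus lay under the ES range in both differentiated samples, and the GAPDH ratio and the spikes lay under it only in EBs. The part of these measures in the results below was not tested. In these bulk samples, fewer cells of a type and less RNA per cell cannot be told apart.

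Several mitochondrial transcripts differed between the ES lines far beyond the spread of the ORMES6 replicates. COX1 ranged between lines over 31.2-fold on the scale used, ND2 and ATP8 were not called present in some of the lines, and all 3 passed an F test over the 7 ES arrays. In that test 0.104% of all probe sets passed, and 0 of 79 nuclear genes did. On simulated data the test recovered 0 of 200 probe sets changed by 4 in ORMES13 and 161 of 200 changed by 6. The nuclear genes had line ranges of 1.98 at most, so their lack of calls does not show that they were alike. The error of the F test comes only from the 3 ORMES6 replicates, so it is known from few arrays.

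COX1 encodes the catalytic subunit of cytochrome c oxidase that holds its haem and copper centres. Its probe set covers a coding sequence at 5850 to 7391 of the mitochondrial genome record cited by the array. Its signal was 543, 638 and 669 in ORMES6, 6938 in ORMES7, 14590 in ORMES9, 19675 in ORMES13 and 16505 in ORMES10. ORMES6 was thus the lowest line on all 3 of its arrays, and these replicates differed by a signal ratio of 1.23. The F test of limma gave an adjusted p of 0.018. The fibroblast array had 10491, inside the range of the ES lines, and the EB array had 220, under every ES array.

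ND2, a core membrane subunit of complex I (coding sequence at 4421 to 5464), was ordered differently. It had 4512 in ORMES13, 695 in ORMES10, 218, 277 and 237 in ORMES6, 70.6 in ORMES7 and 48.4 in ORMES9. ORMES13 and ORMES9 stood at the ends, and the ORMES6 replicates lay within a ratio of 1.27 of each other (adjusted p = 0.027 in limma's F test). By the detection p-values the authors deposited for 5 ES arrays, with a threshold of 0.05, ND2 was not called present in ORMES7 and ORMES9 (p = 0.068 in both). The fibroblasts had 2392, below ORMES13 and above the other lines, and the EBs had 132, inside the ES range.

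ATP8 encodes a small subunit in the membrane part of ATP synthase (coding sequence at 8357 to 8563). It had 2391 in ORMES13 and 557 in ORMES10, but 21.3, 23.2 and 40.7 in ORMES6, 22.9 in ORMES7 and 22.6 in ORMES9. A high level was thus seen in ORMES13 and ORMES10, and the other lines did not differ beyond the spread of the ORMES6 replicates (adjusted p = 0.038 in limma's F test). The fibroblasts had 2564 and the EBs 15.1. ATP8 was called present in ORMES10 and ORMES13 and on none of the other 3 ES arrays with a detection p-value.

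ND4L, another membrane subunit of complex I (coding sequence at 10461 to 10757), had 541 in ORMES13, 122 in ORMES10, 79.4, 68.4 and 145 in ORMES6, 64.6 in ORMES7 and 32.4 in ORMES9. ORMES13 was highest and ORMES9 lowest, as for ND2, but the probe set did not pass the F test (adjusted p = 0.33, limma) and was called present on 1 of the 5 ES arrays, ORMES13. The fibroblasts had 276, with a detection p of 0.15, and the EBs 74.8.

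ND5 and ND6 varied least between the lines. ND5, a proton-pumping subunit of complex I (coding sequence at 12328 to 14139), had 2300 in ORMES13, 3196 in ORMES10, 5123 in ORMES9, 5016 in ORMES7 and 2840, 3376 and 5794 in ORMES6. The 3 ORMES6 replicates alone covered a ratio of 2.04, against 2.22 between the lines, so the lines did not differ beyond replicate spread (adjusted p = 0.68, limma's F test). ND6 (coding sequence at 14140 to 14667, complementary strand) had 364 in ORMES13, 320 in ORMES10, 646 in ORMES9, 288 in ORMES7 and 264, 236 and 314 in ORMES6, with an adjusted p of 0.50. Both were called present on all 5 ES arrays with a deposited detection p-value.

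**Figure D1:**
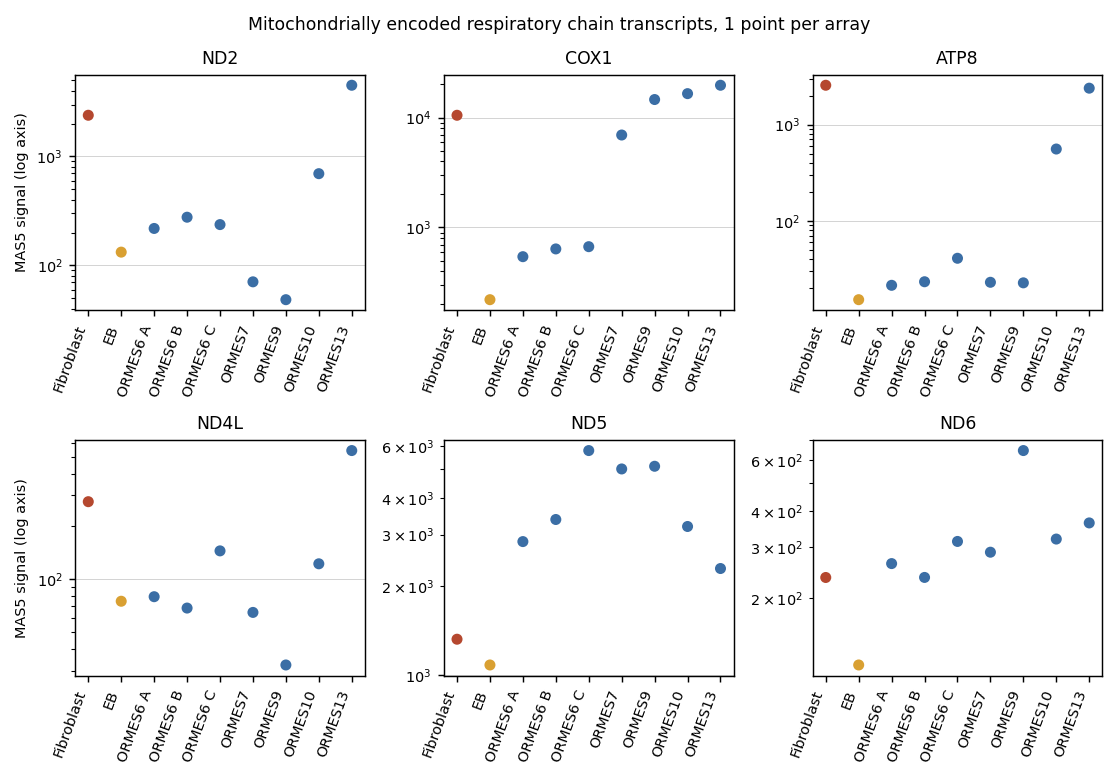
Signal of the 6 mitochondrially encoded members on each array, on a log axis that differs between panels; red is the fibroblast array, yellow the EB array and blue the 7 ES arrays. COX1 is between 543 and 669 on the 3 ORMES6 arrays and at 6938 or more in the other lines. COX1, ND2, ATP8 and ND4L all peak in ORMES13 among the ES lines.

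Markers of other cells differed between the lines as well. Of 15 fibroblast and matrix markers 4 passed the F test (LUM, COL3A1, DCN and POSTN), and the summed signal of the list was 46243 in ORMES13, 29076 in ORMES10, 21338 in ORMES9, 11186 in ORMES7 and 9634 to 10060 in ORMES6. LUM, a matrix proteoglycan, had 5283 in ORMES13, 2683 in ORMES10 and 1396 in ORMES9, but 15.5 in ORMES7 and 9.6, 8.6 and 11.9 in ORMES6. No marker of the list was at 0 on every ES array. Of 12 liver and yolk sac markers 3 passed. The part of these markers in the mitochondrial differences was not tested.

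The calls between lines depend on the error estimate. With limma's prior variance held constant over intensity, the adjusted p was 0.079 for COX1, 0.079 for ND2 and 0.080 for ATP8, and none passed. Without ORMES6 replicate A or without replicate B no probe set of the whole array passed, and without replicate C all 6 mitochondrial probe sets and 51 of 79 nuclear genes passed, as did 8364 probe sets of the array, with 55 in the full data.

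For the nuclear genes, the standard deviation over the 5 lines had a median of 0.33, against 0.40 over the 3 ORMES6 replicates. Over all genes the same medians were 0.34 and 0.28. After adjustment 0.162% of all genes passed. An unadjusted F p under 0.05 (limma) was seen for 6 of the 79 nuclear genes, against 13.0% of all genes. The 5 smallest p-values belonged to NDUFB5, NDUFS3, ATP5C1, NDUFS1 and NDUFB9, with adjusted p of 0.39 to 0.48. NDUFB5, an accessory subunit of complex I, had 3842, 3832 and 3464 in ORMES6, 3310 in ORMES7, 2312 in ORMES9, 1842 in ORMES13 and 1896 in ORMES10. NDUFS3, a core subunit of the same complex, had 2530, 2357 and 2950 in ORMES6, 2554 in ORMES7, 1735 in ORMES9, 1509 in ORMES13 and 1182 in ORMES10. In both genes, which were picked for their small p-values and did not pass, ORMES6 and ORMES7 lay above the other lines without overlap. How many genes of the array separate in this way was not counted. NDUFS1, the largest core subunit, differed in another way, with 803 in ORMES9 against 1468 to 2183 on the other ES arrays. Its dimmer probe sets did not have ORMES9 lowest in the authors' deposited log2 ratios of ES over EB arrays. There ORMES9 had 0.9 in a range of -2 to 0.9, and -0.7 in a range of -2.3 to 0.

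Replicate C of ORMES6 stood above replicates A and B in 63 of the 79 nuclear genes, or 79.7%, against 50.5% of all genes. The median of C minus the mean of A and B was 0.60 for the nuclear members and 0.13 for all genes. Among the ORMES6 arrays, the summed signal of each of the other mitochondrial lists, counted below, was also highest in C. For the mitochondrial ribosomal proteins it was 106884 in C, 86125 in A and 88447 in B. The spikes were 1157 in replicate C, against 594 in A and 571 in B, and their part in this difference was not tested.

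**Figure D2:**
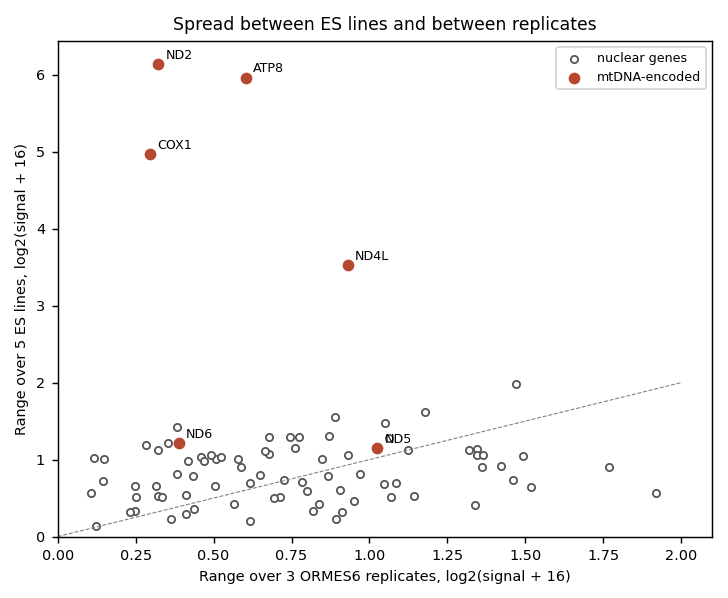
Range of log2(signal + 16) over the 5 ES lines against the range over the 3 ORMES6 replicates, 1 point per gene; the dashed line marks equal ranges. ND2, ATP8, COX1 and ND4L have line ranges of 3.52 to 6.14, and the nuclear genes reach at most 1.98.

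The fibroblasts were compared with the 5 ES lines first, each line counted once. Complex II genes lay higher in the fibroblasts, and most genes of complexes I, III and V lay lower, as did most genes of the array. Few single genes passed the test. Of 79 nuclear genes, 2 passed as higher in fibroblasts (SDHA and COX8C) and 3 as lower (NDUFS6, NDUFS8 and COX5A). Over all genes 7.07% passed as higher and 11.0% as lower, so the members' counts are under the background in both directions. Their median difference was -0.30, against -0.25 over all genes. The fibroblast and EB samples are single arrays, which limma assumes to vary as the lines do.

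NDUFS6, a zinc-binding accessory subunit of complex I, had 800 in fibroblasts, against 3368, 3477 and 4633 in ORMES6, 4921 in ORMES7, 2397 in ORMES9, 2830 in ORMES13 and 2458 in ORMES10. The fibroblast array was lower than every ES array, by 1.96 in the fit (difference -1.96, SE 0.39, adjusted p = 0.012, limma). NDUFS8, a core iron-sulfur subunit of complex I, had 142 in fibroblasts, against 253, 223 and 625 in ORMES6, 527 in ORMES7, 638 in ORMES9, 418 in ORMES13 and 459 in ORMES10. It too was below all ES arrays (difference -1.61, SE 0.38, adjusted p = 0.025, limma). Without ORMES10 its adjusted p was 0.052, and without ORMES6 replicate C it was 0.092. It was 0.12 with the line as a random block over single arrays, 0.054 on centred arrays, and 0.064 with the mean over probe sets, where the difference was -0.92.

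COX5A, a nuclear subunit of cytochrome c oxidase, had 181 in fibroblasts, against 645, 607 and 768 in ORMES6, 743 in ORMES7, 517 in ORMES9, 678 in ORMES13 and 655 in ORMES10. The groups did not overlap (difference -1.75, SE 0.31, adjusted p = 0.0062, limma). A dimmer COX5A probe set had 216 in fibroblasts and 189 to 333 on the ES arrays (difference -0.27, adjusted p = 0.68), so the probe sets of this gene disagree. When probe sets of a gene were averaged the difference of COX5A was -0.61 and its adjusted p 0.14.

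SDHA, the flavoprotein of succinate dehydrogenase that oxidises succinate, had 4170 in fibroblasts, against 1288, 1252 and 1698 in ORMES6, 1497 in ORMES7, 2088 in ORMES9, 2422 in ORMES13 and 1872 in ORMES10. The fibroblast value was above every ES value (difference 1.19, SE 0.33, adjusted p = 0.047, limma). SDHA passed narrowly, and its adjusted p was 0.062 without ORMES6, 0.081 without ORMES7, 0.065 without ORMES9, 0.086 without ORMES10 and 0.076 without ORMES6 replicate C.

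The other subunits of complex II did not pass. SDHC, a membrane anchor, had 1252 in fibroblasts, against 342 to 977 on the ES arrays (difference 0.99, adjusted p = 0.20, limma). SDHB, the iron-sulfur subunit, had 587 in fibroblasts and 336 to 525 on the ES arrays (difference 0.53, adjusted p = 0.38). SDHD, the other anchor, had 2006 in fibroblasts, within the ES range of 1008 to 2585. All 4 genes of the complex had positive differences, with a median of 0.76, and this median lay between 0.31 and 0.93 when the fibroblasts were set against each line in turn.

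The remaining complexes had medians below 0 in fibroblasts. Complex I had a median of -0.40 with 28 of 36 genes below 0, complex III -0.40 with 5 of 6, complex IV -0.07 with 10 of 18 and complex V -0.39 with 12 of 15. Over all genes 12801 of 19745 lay below 0 and 6944 above, with a median of -0.25. Centring the arrays on their medians, which moves fibroblasts against ES lines by 0.29, brought the median of all nuclear genes to -0.01 and that of complex II to 1.04. The sign of the small negative differences is therefore relative to the scaling. The core subunits of complex I had a median of -0.62 and its accessory subunits -0.40.

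At the ends of each complex, NDUFA2, an accessory subunit of complex I, was its highest member in fibroblasts (difference 0.64, adjusted p = 0.35, limma). In complex III the lowest was UQCRB, an accessory subunit, with -1.17 (adjusted p = 0.13). A dimmer UQCRB probe set passed as lower (-1.63, adjusted p = 0.044), with 1.7 in fibroblasts and 19.2 to 68.5 on the ES arrays, and another had -0.08. The highest was UQCRC2, a core protein, with 0.15. The core protein UQCRC1 had 1709 in fibroblasts and 2467 to 3795 on the ES arrays (difference -0.80, adjusted p = 0.052). In complex V the lowest was the catalytic subunit ATP5B (-0.94, adjusted p = 0.13), whose probe set was dim, with 8.7 in fibroblasts and 21.7 to 39.8 on the ES arrays. The highest was ATP5D, the delta subunit of the rotor (0.09). A second ATP5D probe set, close in brightness, had 286 in fibroblasts and 592 to 1321 on the ES arrays and passed as lower (difference -1.58, adjusted p = 0.014), so no direction can be given for ATP5D.

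Counted without overlap, 30 of 79 nuclear genes were lower in fibroblasts than on any of the 7 ES arrays and 8 were higher than on all of them. Over all genes these shares were 36.3% and 18.2%. Complex II had 3 of 4 genes above and complex V 8 of 15 below.

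**Figure D3:**
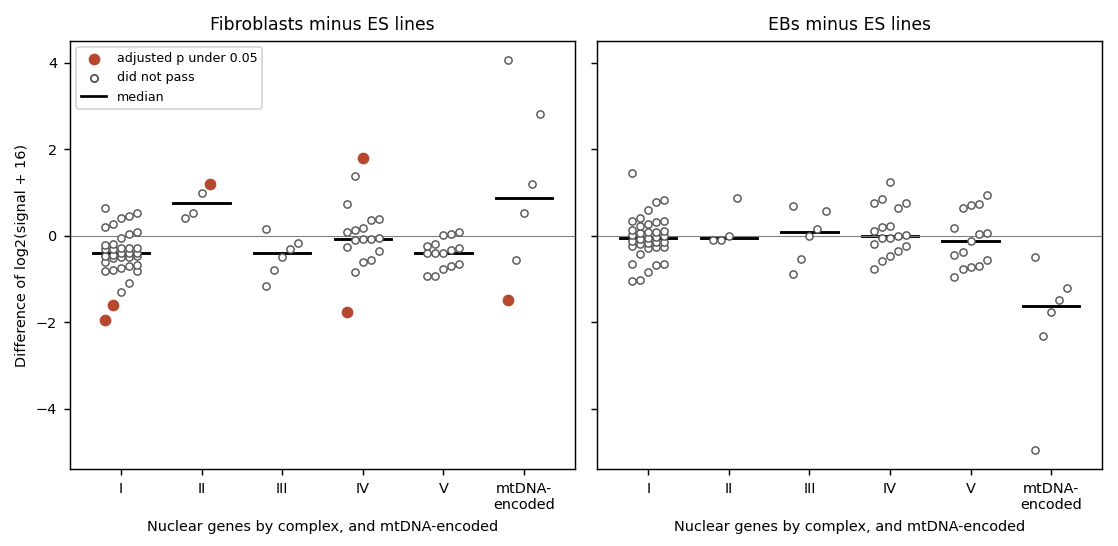
Differences of fibroblasts (left) and EBs (right) from the ES lines, 1 point per nuclear gene by complex and 1 per mitochondrially encoded probe set; black bars are medians and filled red points have an adjusted p under 0.05. Complex II has all 4 genes above 0 in fibroblasts (median 0.76), and all 6 mitochondrial points lie below 0 in EBs (median -1.63).

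Of the mitochondrial transcripts in fibroblasts, 1 passed the test. ND5 had 1322 in fibroblasts, against 2300 to 5794 on the ES arrays, and passed as lower (difference -1.49, SE 0.41, adjusted p = 0.048, limma). Over all probe sets 6.44% passed as lower and 5.48% as higher. Leaving out ORMES6, ORMES7, ORMES9, ORMES10 or replicate C in turn gave adjusted p of 0.087, 0.077, 0.076, 0.075 and 0.077 for ND5. ATP8 had a difference of 4.05 with an interval of -0.55 to 8.66 (adjusted p = 0.27), and without ORMES13 it was 5.04 and passed. ND2 had 2.82 with an interval of -1.34 to 6.98, COX1 0.52 with an interval of -2.90 to 3.95, ND4L 1.21 with an interval of -1.09 to 3.50, and ND6 -0.57 with an interval of -1.61 to 0.47. The wide intervals of COX1, ATP8 and ND2 reflect the spread among the lines described above. ATP8 was above all ES arrays in fibroblasts, where 15.3% of all probe sets were, and ND5 and ND6 were below all of them, as were 30.6%. For ND6 the gap was only 236.0 in fibroblasts to 236.1 in ORMES6 replicate B.

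The EBs were compared with the same 5 lines, so both comparisons share the ES arrays. Among the nuclear genes none passed in EBs by limma, in either direction, while 2.04% of all genes passed as higher and 1.76% as lower. Unadjusted p under 0.05 was seen for 14 of 79 nuclear genes, against 21.7% of all genes. The differences ran from -1.04 to 1.45 with a median of -0.02, against -0.04 over all genes, and no complex had a median outside -0.12 to 0.08. Without overlap, 15 nuclear genes were lower in EBs than on any ES array and 9 higher than on all, against 21.0% and 21.5% of all genes.

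The extremes in EBs were in complex I. NDUFA2 had 705 in EBs and 190 to 344 on the ES arrays (difference 1.45, SE 0.37, adjusted p = 0.084, limma). In the authors' deposited log2 ratios of ES over EB arrays this probe set had a median of -1.4. The other NDUFA2 probe sets had medians of 1.1 and 0, so the probe sets of this gene disagree. NDUFV3, an accessory subunit, had 397 in EBs, against 463 to 999 on the ES arrays (difference -1.04, SE 0.33, adjusted p = 0.15). Its deposited log2 ratios ran from 0 to 1, with a median of 0.8. Those of another NDUFV3 probe set ran from -1.3 to 0.5, with a median of 0.2. In complex V, ATP5I, the e subunit, had 1672 in EBs and 1946 to 4940 on the ES arrays (difference -0.96, adjusted p = 0.084), and ATP5S, also called factor B, was highest with 0.94 (adjusted p = 0.57). The 5 ATP5S probe sets had median deposited log2 ratios from -1.3 to 1.1, so they disagree too. In complex II SDHB was highest (750 in EBs, difference 0.87, adjusted p = 0.22) and SDHD lowest (-0.11). Another SDHB probe set had a median deposited log2 ratio of 0.8, against -0.8 for the one that stands for the gene. Complex III ranged from -0.88 for UQCRB to 0.69 for the Rieske iron-sulfur protein UQCRFS1, and complex IV from -0.77 for COX5A to 1.25 for COX7A1. The dimmer UQCRB probe sets had EB differences of 0.35, 0.15 and -0.11, so the probe sets of UQCRB disagree.

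All 6 mitochondrial probe sets lay below the ES mean in EBs, with a median of -1.63 against -0.04 over all probe sets, but none passed. Of all probe sets 0.912% passed as lower and 1.53% as higher, and an unadjusted p under 0.05 was seen for 3 of the 6, against 16.5% of all probe sets. ND5 came nearest, with 1080 in EBs against 2300 to 5794 on the ES arrays (difference -1.77, SE 0.41, interval -2.70 to -0.84, adjusted p = 0.062, limma). ND6 had 118 in EBs and 236 to 646 on the ES arrays (difference -1.48, adjusted p = 0.14). COX1 had the largest difference of the 6, -4.95 with an interval of -8.37 to -1.53 (adjusted p = 0.14), and without ORMES6 it was -5.83 and passed. ND2 had -1.20 and ATP8 -2.32, both with intervals that include 0, and ND4L had -0.48. ND5, ND6, COX1 and ATP8 were lower in EBs than on any ES array, as were 17.7% of all probe sets, and none was higher than on all, as were 18.0%. In the authors' deposited table the log2 ratio of each ES array over the EB array was between 0.7 and 6 for COX1, between 1.2 and 2.1 for ND5, between 0.9 and 2.4 for ND6 and between 0.2 and 6.5 for ATP8. For ND2 it ran from -0.4 to 4.5 and for ND4L from -1 to 2.9, so these were not lower in EBs than on every ES array.

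Tissue-limited isoforms of complex IV were mostly at low signal. COX8C, known as the testis isoform of COX8 in human, had 44.5 in fibroblasts, against 2.5, 1.8 and 6.9 in ORMES6, 1.1 in ORMES7, 0.8 in ORMES9, 0.9 in ORMES13 and 1.4 in ORMES10. It passed in fibroblasts (difference 1.79, SE 0.20, adjusted p = 0.00062, limma), but it was called present on none of the 5 ES arrays with a detection p-value. The deposited values give no detection p-value for it in fibroblasts, so its presence there is not known. Its 44.5 lies within the 31.3 to 58.4 of COX4I2 on the ES arrays, a gene not called present there. The size of the COX8C difference follows the offset, with 4.27 at an offset of 1 and 0.73 at an offset of 64. Its partner COX8A, the ubiquitous isoform, had 4102 in fibroblasts and 2836 to 7825 on the ES arrays (difference -0.36, adjusted p = 0.49).

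COX7A1, the heart and skeletal muscle isoform, was present on all 5 of those ES arrays. It had 673 in fibroblasts and 614 in EBs, against 243, 237 and 557 in ORMES6, 435 in ORMES7, 287 in ORMES9, 176 in ORMES13 and 132 in ORMES10. Both differentiated samples were above every ES array, but neither difference passed (1.38 in fibroblasts, adjusted p = 0.16; 1.25 in EBs, adjusted p = 0.30; limma). Its partner COX7A2 had 3042 in fibroblasts and 4618 in EBs, against 3844 to 10361 on the ES arrays (difference -0.85 in fibroblasts, adjusted p = 0.26).

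COX4I2, COX6A2 and COX7B2 were not called present on any of the 5 ES arrays, and COX6B2 on 1. Their signals were at most 89.5 on every array and their differences were -0.09, 0.08, 0.13 and -0.06 in fibroblasts. The probe sets of the common isoforms COX6B1 and COX7B were not called present either, at 22.4 or less on every ES array. The common isoforms COX4I1 and COX6A1 were bright, with 6081 and 3405 in fibroblasts, and differed by 0.36 and -0.25 from the ES lines (adjusted p = 0.58 and 0.74, limma). NDUFA4, first named as a complex I protein and known as a subunit of complex IV, had 1807 in fibroblasts and 1387 in EBs, against 1199 to 2963 on the ES arrays. In all, 70 of the 79 nuclear genes (88.6%) were present on all 5 arrays, against 49.8% of all genes, 3 on some and 6 on none.

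**Figure D4:**
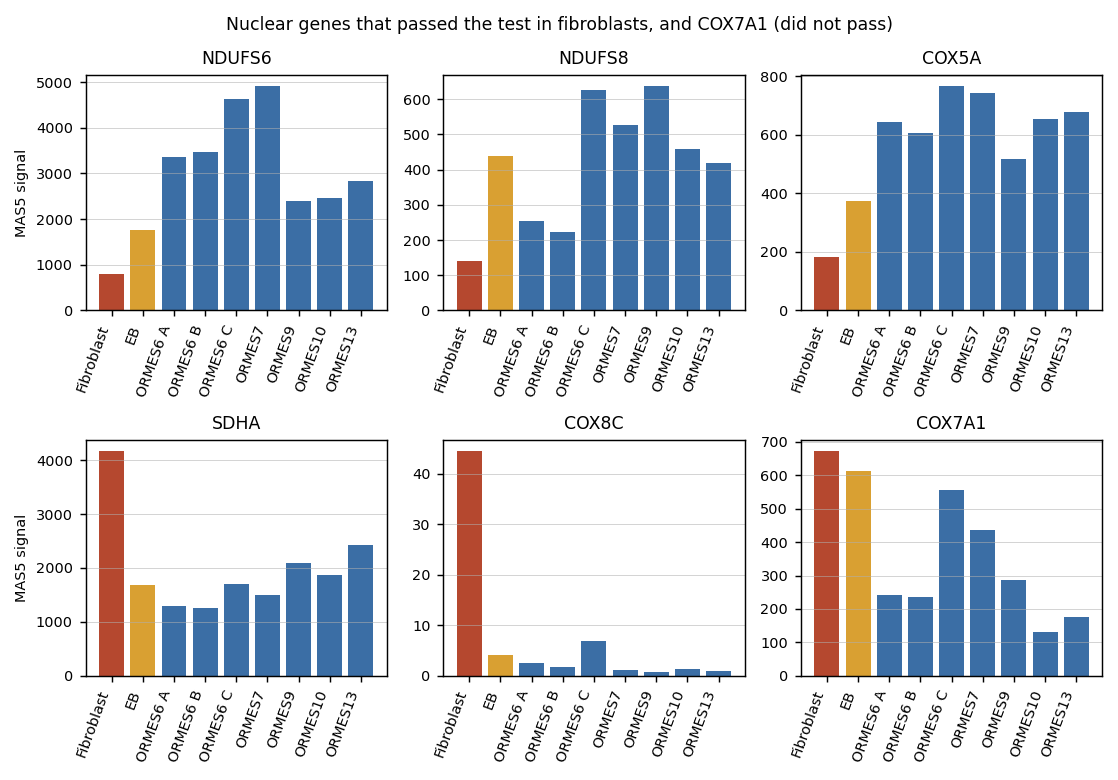
Signal on each array of the 5 nuclear genes that passed in fibroblasts and of COX7A1; bars start at 0 and each panel has its own axis, with red for fibroblasts, yellow for EBs and blue for the 7 ES arrays. NDUFS6, NDUFS8 and COX5A are lowest in fibroblasts and SDHA and COX8C highest, and COX8C reaches only 44.5.

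Other mitochondrial genes were counted by list. Among 20 genes of mitochondrial biogenesis and mitochondrial DNA expression, 5 passed as lower in fibroblasts and none as higher, with a median of -0.79. Over all genes 11.0% passed as lower and 7.07% as higher, with a median of -0.25. LRPPRC, which stabilises mitochondrial mRNAs, had 689 in fibroblasts and 1953 to 2665 on the ES arrays (difference -1.67, adjusted p = 0.0042, limma). TFAM, which packages mitochondrial DNA and starts its transcription, had 521 in fibroblasts and 1182 to 1730 on the ES arrays (difference -1.42, adjusted p = 0.014). POLG2, the accessory subunit of the mitochondrial DNA polymerase, and PEO1, the mitochondrial helicase, had differences of -1.86 and -1.24.

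Of 16 protein import genes, 4 passed as lower in fibroblasts and none as higher. These were the inner membrane translocase subunit TIMM50 (-1.75), the small chaperones TIMM13 (-2.11) and TIMM10 (-1.62), and the outer membrane receptor TOMM22 (-1.28). Of 75 mitochondrial ribosomal proteins, 7 passed as lower and none as higher. MRPS26 had 577 in fibroblasts and 1566 to 4233 on the ES arrays (difference -2.33, adjusted p = 0.0045, limma), MRPL52 had -1.92 and MRPS2 -1.67. The share that passed as lower was 25.0% for protein import and 9.33% for the ribosomal proteins, with 11.0% over all genes.

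In the tricarboxylic acid cycle and pyruvate dehydrogenase list, 1 of 24 genes passed as higher and 2 as lower in fibroblasts, shares of 4.17% and 8.33% that lie under those of all genes. DLAT, a subunit of pyruvate dehydrogenase, had 1418 in fibroblasts, against 393 to 746 on the ES arrays (difference 1.50, adjusted p = 0.020, limma). PDK1, a kinase that inhibits pyruvate dehydrogenase, had 523 in fibroblasts, against 2074 to 3780 on the ES arrays (difference -2.37, adjusted p = 0.0033). IDH3B, a subunit of isocitrate dehydrogenase, was lower in fibroblasts (-1.10) and in EBs (-1.12, adjusted p = 0.048).

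Of 12 further chain genes, for cytochrome c and its partner, ubiquinone synthesis, electron-transfer flavoprotein and ATP synthase factors, COQ7, an enzyme of ubiquinone synthesis, passed as lower in fibroblasts (-2.03, adjusted p = 0.017, limma). Of 15 assembly factors, LETM1 passed as lower in fibroblasts (-1.12) and HCCS, which attaches haem to cytochrome c, as lower in EBs (-1.67, adjusted p = 0.020). Of 16 carriers, pores and uncoupling proteins, the dicarboxylate carrier SLC25A10 passed as lower in fibroblasts, with 35.1, against 178 to 231 on the ES arrays (difference -2.15, adjusted p = 0.0028). In EBs no other member of these lists passed. The shares that passed as lower in fibroblasts were 8.33% for further chain genes, 6.67% for assembly factors and 6.25% for the carriers list. All of these lie under the 11.0% of all genes. The share lower in EBs was 6.67% for the assembly factors, which is HCCS alone, against 1.76% of all genes.

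**Figure D5:**
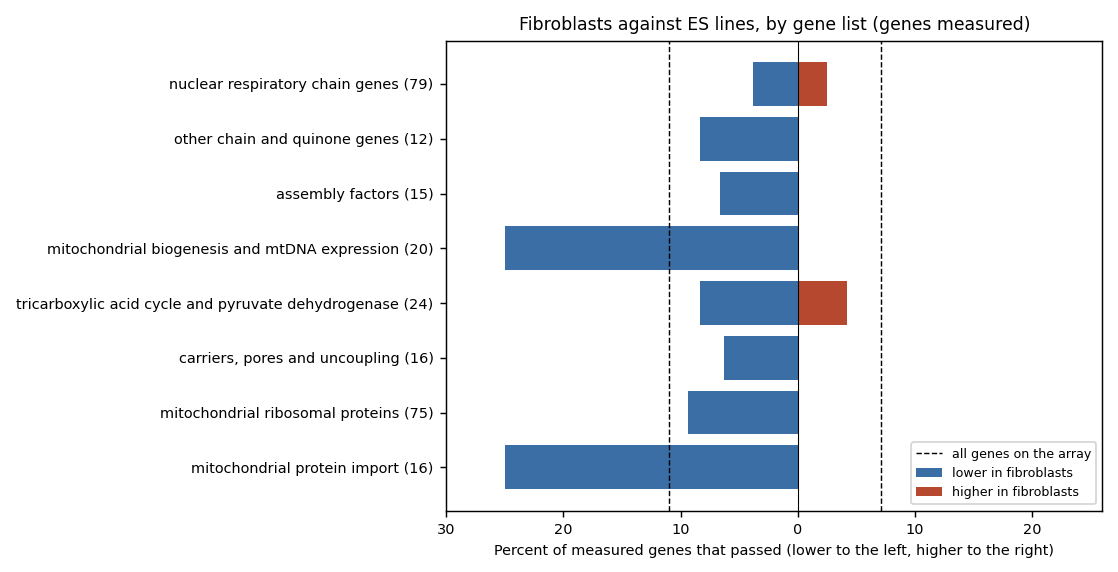
Percent of measured genes that passed the test in fibroblasts, lower to the left and higher to the right, for the nuclear respiratory chain genes and 7 other mitochondrial lists, with the number measured in brackets; dashed lines give the shares over all genes, 11.0% and 7.07%. The biogenesis and protein import lists have 25.0% lower, and the respiratory chain genes lie under both dashed lines.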

How the data were processed

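Affymetrix rhesus arrays were analysed from the deposited series table of MAS5 signal intensities, 1 column per array, which the authors made with Affymetrix Microarray Suite, per the labels. Detection p-values came from the authors' deposited tables for 5 ES arrays (for ORMES6 the replicate is not named) and, for part of the probe sets, the fibroblasts. The log2 ratios of ES over EB arrays are the authors' deposited values. Another 136 per-sample columns were not used. Of 52865 probe sets, 99 controls and 3 without values were left out. Signals became log2(signal + 16), ORMES6 replicates were averaged, and limma 3.58.1 in R 4.3.3 fitted fibroblasts and EBs against the 5 lines with an intensity trend and Benjamini-Hochberg adjustment over 52763 probe sets, called at 0.05. An F test compared the lines over 7 arrays. Intervals are 95%. P-values for fibroblasts and EBs rest on the spread among the 5 ES lines, since a single array has none of its own. Those of the F test rest on the spread of the 3 ORMES6 replicates. The scripts were tested on simulated data, where 31 of 200 probe sets changed by 2 on the fibroblast array were recovered. Of 200 changed by 4 there, 170 were recovered. A gene was represented by its brightest probe set on average; 43 nuclear genes had only 1. Of 79 nuclear symbols, 62 were current and 11 were updated from older names. Members and lists were chosen with earlier results of these data known. The genes named were all mitochondrial members, nuclear members that passed, complex IV isoforms with their partners, the extremes of each complex, up to 4 genes per other list, and the 5 smallest F p-values. ATP5D, UQCRC1, the matrix markers and the further COX5A and UQCRB probe sets were added after their values were seen. No sequences are printed.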

Additional observations from a re-analysis of the deposited data

Results flagged for a closer look

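Among 23 named genes, the value of 1 ES line lay far from the other 4 in 2 genes, by Dixon's ratio of gap to range with a critical value of 0.71. COX8C stood at 3.61 in ORMES6, the mean of its 3 replicates on the log scale, against 0.8 to 1.4 in the other lines. COX7B stood at 3.2 in ORMES9. Neither gene was called present on any ES array with a detection p-value. Chance alone marks about 1 in 20 such groups.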

How the results depend on the processing

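Each result was recomputed with other offsets, quantile normalization, centred arrays, no intensity trend, brighter probe sets only, the mean over a gene's probe sets, the line as a random block, and each line or ORMES6 replicate left out. No paired analysis was possible, because fibroblasts and EBs are 1 array each and the labels do not name the line or lines of the EBs. The median differences moved beyond the spread over lines only on centred arrays in fibroblasts, to -0.010 for the nuclear genes and 1.04 for complex II; the median over nuclear genes in EBs lies near 0 and took both signs. In fibroblasts the number of nuclear genes that passed as higher was 1 with offset 64, quantile normalization, no trend, brighter probe sets (where the dim COX8C was left out) or the mean over probe sets. The number that passed as lower was 5 after quantile normalization, 7 with brighter probe sets, where fewer probe sets are tested, and 1 with the mean. With an offset of 64, centring, no trend, the mean or the random block, 0 mitochondrial probe sets passed in fibroblasts, against 1. In EBs, brighter probe sets gave 2 nuclear genes as lower (ATP5I and ATP5A1) and 1 mitochondrial probe set (ND5). Between lines 0 mitochondrial probe sets passed without a trend. Leaving out 1 line or replicate gave 1 to 2 nuclear genes as higher and 2 to 6 as lower in fibroblasts, 0 to 1 as lower in EBs, 0 to 2 mitochondrial probe sets in fibroblasts and 0 to 1 in EBs, and between lines 0 to 6 mitochondrial probe sets and 0 to 51 nuclear genes. COX8C and NDUFS6 passed in every run that tested them, COX5A in all but the mean over probe sets, and ND5, NDUFS8 and SDHA lost the call in several. The differences of these 6 genes kept their sign. Except where stated, the cause of a change was not tested. The lone fibroblast and EB arrays limit the precision.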
